A study of Homo sapiens with 27 samples.

Results

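The ERBB receptors and their ligands were followed as 10 genes of the 60619 in the deposited count table. They were the receptors EGFR, ERBB2, ERBB3 and ERBB4 and the ligands EGF, TGFA, HBEGF, BTC, EREG and NRG1, found by Ensembl identifier and named with GENCODE v44 symbols. The rule used gene names and no threshold on a measured value. All 10 were present in the table.

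ERBB receptors are receptor tyrosine kinases that act as pairs at the cell surface. EGFR, ERBB3 and ERBB4 bind ligand, ERBB2 has no known ligand and serves as the preferred partner of the others, and ERBB3 has a weak kinase and passes signals on mainly through phosphatidylinositol 3-kinase. EGF, TGFA, HBEGF, BTC and EREG bind EGFR, of which HBEGF, BTC and EREG also bind ERBB4, whereas NRG1 binds ERBB3 and ERBB4. ERBB2 amplification defines a class of breast cancers, and growth factor receptor activity is one of the routes by which estrogen receptor-positive breast cancer cells come to grow without estrogen.

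RNA-Seq libraries were made from MM134 (MDA-MB-134VI) and SUM44, 2 human invasive lobular breast carcinoma cell lines that express estrogen receptor, and from long-term estrogen-deprived (LTED) variants of each. The comparison asks which transcripts differ once cells grow without estrogen. The 9 groups were MM134 parental cells, the 4 MM134 variants A, B, D and E (written LTED-A and so on), SUM44PE parental cells, SUM44F parental cells (SUM44PE cells adapted to medium with fetal bovine serum, and the parental group of the SUM44 variants), and SUM44 LTED-A and LTED-B. All cells were in medium with charcoal-stripped serum at collection. Parental cells had been in it for 3 days, whereas each LTED variant was a clone that emerged over months of deprivation and was kept in that medium, so time without hormone and clonal origin cannot be told apart. Each group had 3 wells. No well was tied to a separate derivation, so p-values measure the spread between wells and do not speak for other derivations of a line.

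Library totals were 28583554 to 134882175 counts (median 44018412). Replicates 2 and 3 of SUM44 LTED-A agreed within counting noise (chi-square per degree of freedom 0.312, against 2.35 to 58.2 in the other 26 pairs) and were counted as 1 sample, so that variant has n = 2. All 8 luminal epithelial markers (ESR1, GATA3, FOXA1, KRT8, KRT18, KRT19, EPCAM and TFF1) were above 3 counts in every library. Their summed level was 4352 to 4369 CPM (counts scaled to library size) in MM134 parental cells and 6533 to 9034 CPM in the MM134 variants, where TFF1, an estrogen target, was at 528 to 2523 CPM against 4.27 to 4.30 CPM before. Replicate 1 of SUM44F stood apart: its 6 fibroblast markers summed to 363 CPM, against 5.12 to 36.0 in the other 26 libraries, with 2636 counts of LUM against 0 and 1 in SUM44F replicates 2 and 3. Counts of calls against SUM44F, and values where stated, are therefore also given without that library. The summed fibroblast markers were in MM134 20.5 to 36.0 CPM before and 8.19 to 28.3 CPM after long-term deprivation, and the summed immune markers were 0.480 to 1.32 CPM and 4.37 to 24.0 CPM. The immune sum was carried by CD68 and LYZ, while CD3E did not pass 7 counts in any library. The summed endothelial markers were 1.5 to 2.94 CPM in parental and 1.59 to 4.99 CPM in LTED libraries of MM134, and 25.8 to 45.2 CPM in SUM44F libraries against 2.89 to 4.58 CPM in SUM44 LTED libraries. The SUM44F sum was mostly PECAM1 (27.6, 26.8 and 21.7 CPM). In SUM44F replicates 2 and 3, CDH5 was at 0.117 and 0.0891 CPM and KDR at 0.0195 and 0.0111 CPM. The basal markers summed to 3.37 to 4.4 CPM in SUM44F libraries and 0.15 to 0.398 CPM in SUM44 LTED libraries, and to 0.427 to 0.565 CPM in parental and 0.168 to 0.419 CPM in LTED libraries of MM134. The part of these markers in the results below was not tested.

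Levels are CPM scaled by TMM over all 9 groups, and fold changes as log2 ratios of 2 groups with their standard errors (SE) from edgeR's quasi-likelihood test. A call needed a fold change above 1.5 and an adjusted p under 0.001 (Benjamini-Hochberg, over all genes tested), the thresholds the study used. In these bulk samples, fewer cells that express a gene and less RNA per cell cannot be told apart.

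The 4 members called in the same direction in every MM134 variant were ERBB4, BTC, ERBB2 and TGFA. For each, 1 proximal promoter window is shown here, 250 bases before to 50 bases after a RefSeq start on GRCh38.p14. The windows run 5′ to 3′ on the strand of the gene, with GC boxes (GGGCGG on either strand) in capitals. ERBB4 and BTC rose in the MM134 variants, and ERBB2 and TGFA fell.
ERBB4 (chr2:212538753-212539052, minus strand): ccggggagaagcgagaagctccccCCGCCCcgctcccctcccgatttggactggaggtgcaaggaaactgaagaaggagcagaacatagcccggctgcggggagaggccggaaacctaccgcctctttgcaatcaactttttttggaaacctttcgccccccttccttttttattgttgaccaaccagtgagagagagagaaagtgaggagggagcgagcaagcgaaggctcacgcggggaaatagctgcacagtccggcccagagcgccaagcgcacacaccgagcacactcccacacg
BTC (chr4:74794474-74794773, minus strand): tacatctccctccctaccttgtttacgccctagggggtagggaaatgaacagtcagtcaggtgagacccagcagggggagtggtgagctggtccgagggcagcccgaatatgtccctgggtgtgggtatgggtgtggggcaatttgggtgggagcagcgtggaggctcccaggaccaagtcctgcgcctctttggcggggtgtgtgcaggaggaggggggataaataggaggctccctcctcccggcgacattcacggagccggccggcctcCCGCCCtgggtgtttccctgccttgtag
ERBB2 (chr17:39687844-39688143, plus strand): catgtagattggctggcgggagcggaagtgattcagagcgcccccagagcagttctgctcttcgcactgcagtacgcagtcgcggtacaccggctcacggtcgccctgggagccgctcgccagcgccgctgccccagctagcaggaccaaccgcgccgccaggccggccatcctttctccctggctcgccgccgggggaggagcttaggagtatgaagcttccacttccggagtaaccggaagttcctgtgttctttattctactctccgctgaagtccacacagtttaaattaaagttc
TGFA (chr2:70553777-70554076, minus strand): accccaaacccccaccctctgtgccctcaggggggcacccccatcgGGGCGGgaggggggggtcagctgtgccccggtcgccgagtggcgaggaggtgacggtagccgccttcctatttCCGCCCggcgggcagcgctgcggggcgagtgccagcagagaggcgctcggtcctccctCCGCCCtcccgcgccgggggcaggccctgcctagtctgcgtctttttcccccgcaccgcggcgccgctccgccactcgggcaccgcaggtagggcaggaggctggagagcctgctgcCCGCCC
The ERBB4 and BTC windows held 1 GC box each, the TGFA window 4 and the ERBB2 window 0, where 44.9% of the 35116 RefSeq promoters of that length held at least 1. The ERBB2 window alone of these held an AP-1 motif (TGANTCA, either strand), which 7.71% of promoters hold. The full palindromic estrogen response element was in 0 of the 8 member promoters in the table (ERBB3 and NRG1 were the members not in it) and in 0.0569% of all promoters. The GC content was 59.0% for ERBB4, 63.0% for BTC, 60.7% for ERBB2 and 75.3% for TGFA. The ERBB2 window spans the outermost annotated base of the gene (39687914), where PGAP3 overlaps on the opposite strand. Promoters of transcripts that start elsewhere in a gene were not examined, so these counts describe the printed windows only. A letter match is a description and not a binding site.

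In MM134, ERBB4 rose and ERBB2 fell in all 4 LTED variants, while ERBB3 stayed within 1.21-fold of parental cells. ERBB4 went from the lowest level of any group to a level near that of SUM44F, and ERBB2 from 73.4 CPM to no more than 16.2 CPM. Of the 8 members tested in MM134, 5 were called in LTED-A, 4 in LTED-B, 5 in LTED-D and 5 in LTED-E. Over all 26061 genes tested, 20.3%, 15.9%, 17.6% and 19.0% were called in those variants. The called members were 3, 2, 2 and 3 higher, where 10.5%, 8.11%, 9.63% and 8.71% of genes were called higher, and 2, 2, 3 and 2 lower, where 9.82%, 7.75%, 7.95% and 10.3% were called lower. In all 4 variants, 2 members were called higher and 2 lower, where 4.08% and 4.44% of genes were. The same 4 members were the ones called alike in at least 3 variants, where 6.66% of genes were called higher and 6.83% lower. EGFR and NRG1 were too low to be tested in MM134.

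**Figure D1:**
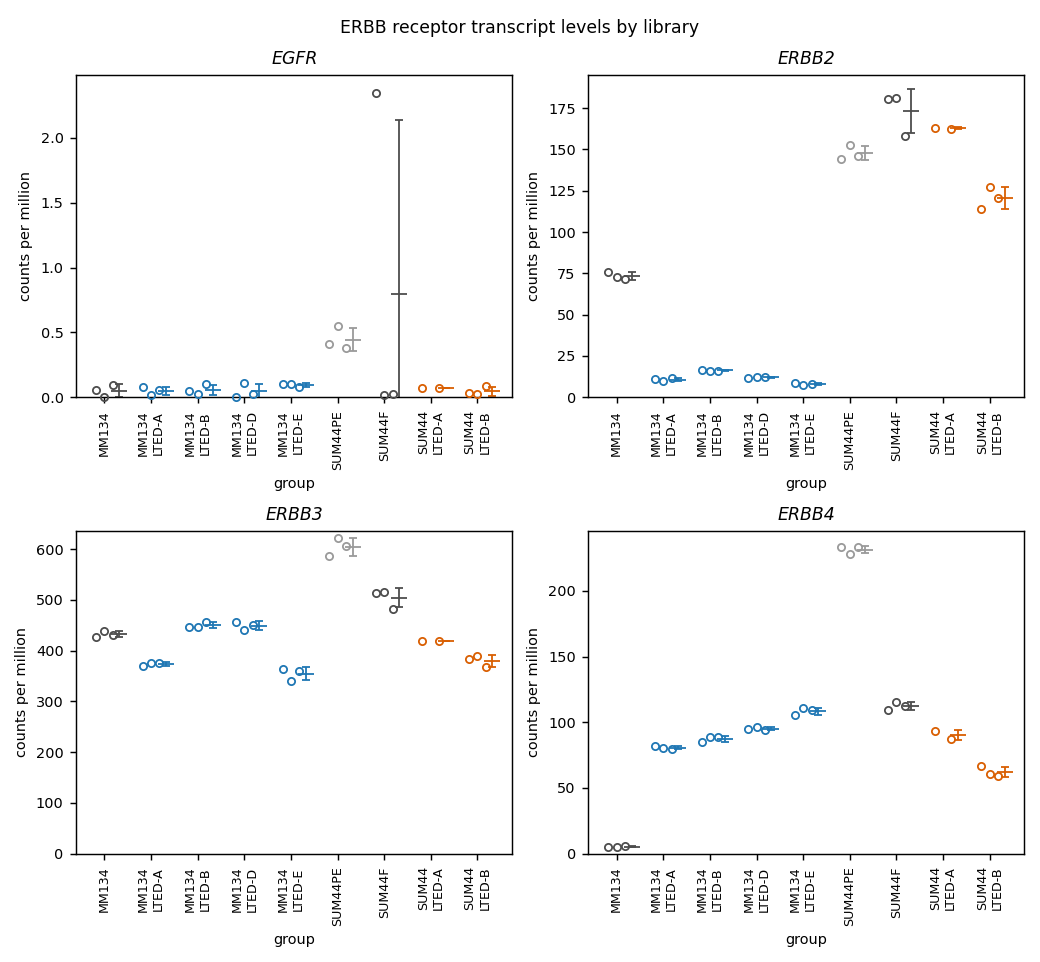
Transcript levels of the 4 receptors in CPM (linear axes from 0), with 1 circle per library (SUM44 LTED-A has 2, 1 of them the mean of 2 near-identical libraries) and the group mean ± SD beside them. ERBB4 lies at 4.70 to 5.41 CPM in MM134 parental cells and at 79.7 CPM or more in every MM134 LTED library, ERBB2 shows the opposite order, and 1 SUM44F library carries nearly all EGFR of its group.

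ERBB4 (ENSG00000178568, chr2:211375717-212538841, minus strand, hg38), a neuregulin receptor with a full kinase, was at 5.23, 4.70 and 5.41 CPM in the 3 MM134 parental libraries. It was at 81.6, 80.3 and 79.7 CPM in LTED-A and at 84.6, 88.4 and 88.7 CPM in LTED-B. In LTED-D it was at 94.9, 96.3 and 94.0 CPM and in LTED-E at 105, 111 and 109 CPM. No LTED library overlapped with the parental libraries, and the lowest LTED value was more than 10 times the highest parental value. The log2 fold changes were 3.98 (SE 0.0438) in LTED-A, 4.10 (SE 0.0440) in LTED-B, 4.23 (SE 0.0441) in LTED-D and 4.42 (SE 0.0438) in LTED-E. These are 15.7-fold to 21.4-fold rises, with adjusted p-values between 4.51e-22 and 1.51e-21. Among the variants, LTED-E exceeded LTED-D by 0.19 on the log2 scale (adjusted p = 0.00144 in the fit of all 9 groups), and LTED-B exceeded LTED-A by 0.11 (adjusted p = 0.0638).

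ERBB2 (ENSG00000141736, chr17:39687914-39730426, plus strand), the ligand-less partner receptor, moved the other way. The MM134 parental libraries held 75.7, 73.1 and 71.4 CPM. LTED-A held 10.9, 9.80 and 11.4 CPM, and LTED-B held 16.8, 16.1 and 15.8 CPM. LTED-D held 11.8, 12.4 and 12.1 CPM, and LTED-E held 8.92, 7.65 and 8.26 CPM. All 12 LTED libraries were below all parental ones. The log2 fold changes were −2.78 (SE 0.0510) in LTED-A, −2.17 (SE 0.0505) in LTED-B, −2.59 (SE 0.0530) in LTED-D and −3.14 (SE 0.0542) in LTED-E, falls of 4.50-fold to 8.82-fold, with adjusted p-values of at most 8.24e-17. The smallest fall was in LTED-B, where ERBB2 was 0.42 above LTED-D on the log2 scale (adjusted p = 1.92e-05).

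ERBB3 (ENSG00000065361, chr12:56076799-56103505, plus strand), the receptor with a weak kinase, was the most abundant of the family in every group. It was at 428 to 439 CPM in MM134 parental cells, at 446 to 457 CPM in LTED-B and at 440 to 457 CPM in LTED-D. It was at 369 to 376 CPM in LTED-A and 341 to 364 CPM in LTED-E, below every parental library. These differences were small: the log2 fold changes were −0.22 (SE 0.0260), 0.06 (SE 0.0261), 0.07 (SE 0.0261) and −0.28 (SE 0.0261) in variants A, B, D and E. The adjusted p-values were 7.94e-07 in LTED-A and 3.93e-08 in LTED-E, yet ERBB3 missed the 1.5-fold threshold in each variant. ENSG00000257411, which overlaps ERBB3 on the same strand, had at most 473 counts in a library, where ERBB3 had at least 12752.

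EGFR (ENSG00000146648, chr7:55019017-55211628, plus strand), the founding receptor of the family, was close to the detection limit in MM134. Parental libraries held 2, 0 and 3 counts, and the 12 LTED libraries held 0 to 8. It was therefore not tested in that line, and no fold is given.

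Levels of different receptors were compared after division by the length of the merged exons of each gene. On that scale ERBB3 made up 83.1% ± 0.515 (SD, n = 3) of the summed receptor level in MM134 parental cells, ERBB2 16.0% ± 0.492 and ERBB4 0.885% ± 0.0730. In the MM134 variants ERBB4 made up 14.4% (LTED-B) to 21.1% (LTED-E) and ERBB2 2.03% (LTED-E) to 3.37% (LTED-B), with ERBB3 at 76.8% to 82.3%. The ratio of ERBB4 to ERBB2 per kilobase was 0.0553 ± 0.00457 in parental cells. It was 6.01 ± 0.474 in LTED-A, 4.26 ± 0.232 in LTED-B, 6.23 ± 0.124 in LTED-D and 10.4 ± 1.05 in LTED-E (SD, n = 3 each). The lowest LTED library had a ratio of 4.004 and the highest parental library one of 0.0601, so the order of ERBB2 and ERBB4 was inverted in all 12 libraries. The size of these ratios depends on the length used. ERBB2 has 10321 bases of merged exons but 4930 in its longest transcript, and ERBB4 13011 and 12097. With the longest transcript as length, the ratios would be lower and the ERBB2 shares higher.

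**Figure D2:**
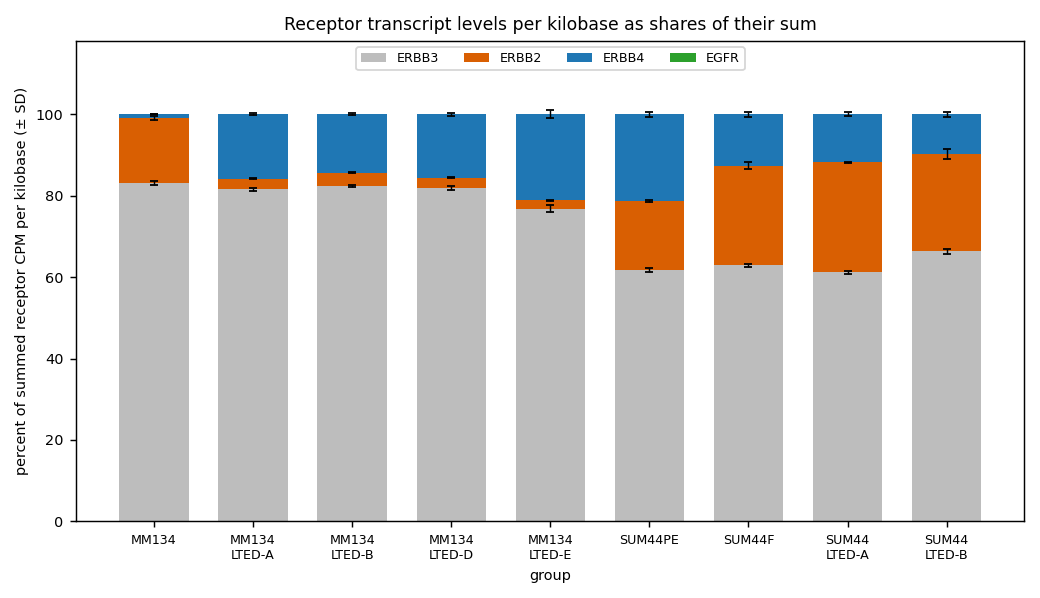
Length-scaled receptor levels (CPM per kilobase of merged exons) as percent of the sum of the 4 receptors, by group, with bars as group means and lines as the SD of the share that ends there. ERBB3 holds the largest share in all 9 groups, ERBB2 gives way to ERBB4 between MM134 parental cells (16.0% and 0.885%) and the MM134 variants, and EGFR is too small to be seen.

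The genes that neighbour ERBB2 and ERBB4 were examined, 20 tested genes on each side. The median log2 fold change of the 40 neighbours of ERBB2, over 1.41 Mb, was −0.20 in LTED-A, −0.12 in LTED-B, −0.16 in LTED-D and −0.06 in LTED-E, with 4, 4, 4 and 6 of the 40 called lower, where 9.82%, 7.75%, 7.95% and 10.3% of all genes were. Singled out after their values were seen, CACNB1, a calcium channel subunit gene whose start lies at −514.5 kb from that of ERBB2, fell in all 4 variants (log2 −2.30, −1.68, −2.48 and −2.94), as did THRA, a thyroid hormone receptor gene at 370 kb (log2 −1.13, −0.97, −0.70 and −1.44). Over the 8.94 Mb around ERBB4 the medians were −0.15, −0.13, −0.14 and −0.02. Of these 40 neighbours, 6, 4, 5 and 3 were called higher, where 10.5%, 8.11%, 9.63% and 8.71% of all genes were. Called lower were 7, 7, 11 and 8, larger shares than the 9.82%, 7.75%, 7.95% and 10.3% of all genes. Among the neighbours of ERBB4, 3 were singled out after their values were seen. CPS1 was called higher in all 4 variants (log2 2.30, 3.22, 2.20 and 2.45). MIR548F2 (log2 3.69 to 4.23), which lies inside ERBB4 on the same strand, had at most 32 counts in a library and was not called in LTED-A. MAP2, a microtubule-associated protein gene, fell (log2 −6.40 to −5.48). PGAP3 and MIEN1, singled out after their values were seen because they overlap ERBB2 on the opposite strand, were not called lower. PGAP3 was at 21.7 to 31.1 CPM in the variants against 25.2 CPM before, and MIEN1 at 54.1 to 64.0 CPM against 43.7 CPM, with neither called. Of the 9 genes listed for the 17q12 region beside ERBB2, 1, 2, 0 and 2 were called lower in variants A, B, D and E, and 1, 0, 1 and 0 higher. PPP1R1B, a phosphatase inhibitor in dopamine signalling, was the one called lower in 3 variants, from 14.9 CPM to 4.82, 8.18 and 7.63 CPM in LTED-A, LTED-B and LTED-E, while LTED-D held 20.02 CPM. PNMT, also in that list and singled out after its values were seen, was called in all 4 variants but in both directions. Its log2 fold changes were 1.08, −7.46, 0.79 and −0.61 in variants A, B, D and E.

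**Figure D3:**
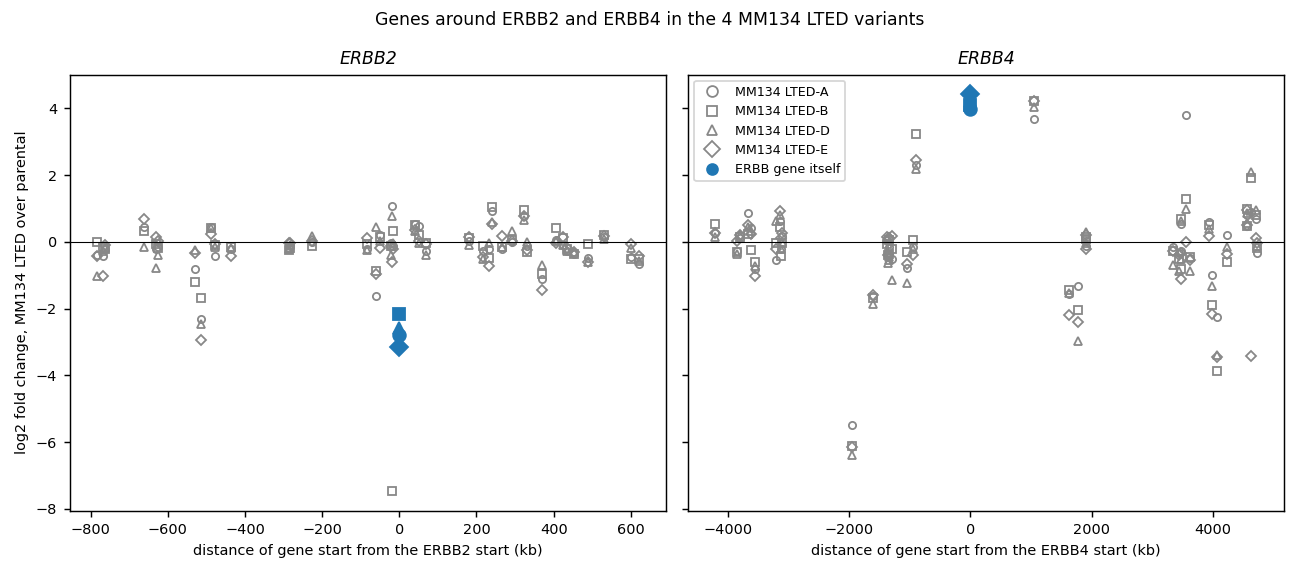
Log2 fold change of ERBB2 (left) and ERBB4 (right) with 20 tested genes on each side in the 4 MM134 LTED variants against MM134 parental cells, plotted by distance between gene starts in kilobases (filled symbols, the ERBB gene; open symbols, neighbours). The neighbours scatter around a median between −0.20 and −0.02 in every variant, and ERBB2 and ERBB4 lie away from most of them.

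In SUM44, the 1 receptor called was ERBB4, which fell in LTED-B. SUM44F held ERBB2 at 181, 181 and 158 CPM, SUM44 LTED-A at 163 and 163 CPM, and LTED-B at 114, 127 and 120 CPM (120.5 in replicate 3). All LTED-B libraries were below all SUM44F libraries, while LTED-A lay within the SUM44F range. ERBB2 differed from SUM44F by −0.09 (SE 0.0860, adjusted p = 0.484) in LTED-A and by −0.52 (SE 0.0771, adjusted p = 0.000282) in LTED-B on the log2 scale, the latter a 1.44-fold difference that missed the fold threshold. Without SUM44F replicate 1 they were −0.06 and −0.49.

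ERBB4 was at 109, 115 and 113 CPM in SUM44F, at 93.2 and 87.5 CPM in SUM44 LTED-A, and at 66.6, 60.7 and 59.0 CPM in LTED-B. The 3 groups did not overlap. In LTED-B it fell by 0.86 on the log2 scale (SE 0.0682, adjusted p = 3.32e-06), a 1.81-fold fall, and in LTED-A the log2 fold change was −0.31 (SE 0.0760, adjusted p = 0.00802), which was not called. Without SUM44F replicate 1 the values were −0.88 and −0.33. ERBB3 was at 482 to 516 CPM in SUM44F, 419 CPM in both LTED-A samples and 367 to 389 CPM in LTED-B, with log2 fold changes of −0.26 (adjusted p = 0.0364) and −0.41 (adjusted p = 0.00150), neither called. In all, 2 of the 8 members tested were called in SUM44 LTED-A and 4 in LTED-B, where 13.7% and 17.3% of all 26834 genes tested were. Both in LTED-A were lower, where 7.28% of genes were called lower and 6.39% higher, and LTED-B had 1 higher and 3 lower, where 8.69% and 8.57% of genes were. HBEGF was the one member called alike in both, as lower, where 4.75% of genes were called lower in both and 3.87% higher. The counts of members were again 2 and 4 without SUM44F replicate 1, where 12.1% and 15.8% of genes were called.

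The parental cultures of SUM44 differed from each other. ERBB4 was at 233, 228 and 233 CPM in SUM44PE, the highest level of any group, and 2.05-fold that of SUM44F (log2 1.03, SE 0.0599, adjusted p = 1.06e-07, and 1.02 without SUM44F replicate 1). ERBB3, at 586, 621 and 606 CPM, was also highest in SUM44PE, with a log2 difference of 0.25 (SE 0.0693, adjusted p = 0.0187) from SUM44F that was not called. Of the 9 members tested, 4 were called between SUM44PE and SUM44F, ERBB4 and EGF as higher in SUM44PE and TGFA and HBEGF as lower, where 5.57% of 27457 genes were called, 2.85% as higher and 2.72% as lower. Without SUM44F replicate 1 the count was again 4, with EGFR in and HBEGF out, where 5.10% of genes were called. EGFR passed the filter on low counts in that fit only through its SUM44PE libraries.

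EGFR in SUM44F rested on 1 library. SUM44F held 108, 1 and 2 counts (2.34, 0.0195 and 0.0223 CPM), the 108 in the replicate with the raised fibroblast markers. SUM44PE held 15, 26 and 15 counts, SUM44 LTED-A 3 and 8, and SUM44 LTED-B 1, 1 and 8. With all libraries the log2 difference of SUM44PE from SUM44F was −0.77 (SE 1.09, adjusted p = 0.695). Without SUM44F replicate 1 it was 4.26 (adjusted p = 0.000318), so the sign turned and the call was made. EGFR was not tested in the fit without SUM44PE. It thus passed the filter on low counts here through SUM44PE, the group in which it was then called higher. With 1 and 2 counts left in SUM44F, this value is a description and not a measured fold.

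MM134 and SUM44F parental cells were also compared. ERBB4 was 22.0-fold lower in MM134 (log2 −4.46, SE 0.0561, adjusted p = 2.04e-26) and ERBB2 2.36-fold lower (log2 −1.24, SE 0.0570, adjusted p = 1.17e-15). ERBB3 differed by −0.22 (SE 0.0391), which was not called. Of the 9 members tested, 5 were called, all lower in MM134, where 38.1% of all 29608 genes tested were called in either direction, 19.1% as higher and 19.0% as lower in MM134. The count was again 5 without SUM44F replicate 1, where 37.6% of genes were called. The other 3 were EGF, HBEGF and BTC. In the order of the 9 groups, ERBB4 in SUM44F and MM134 LTED-E were neighbours at 112 and 108 CPM that did not differ beyond their spread (adjusted p = 0.314). MM134 LTED-D came next and was below LTED-E (adjusted p = 0.00144). From MM134 LTED-D to SUM44 LTED-A to MM134 LTED-B, at 95.1, 90.3 and 87.2 CPM, no step differed (adjusted p = 0.207 for LTED-D and SUM44 LTED-A, 0.414 for SUM44 LTED-A and LTED-B). ERBB2 in SUM44F, SUM44 LTED-A and SUM44PE, at 173, 163 and 148 CPM, likewise did not differ between neighbours (adjusted p = 0.274 and 0.0703).

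The receptor responses of the 2 lines were set against each other by taking the mean over the 2 SUM44 variants from the mean over the 4 MM134 variants, on the log2 scale. For ERBB4 these means were 4.18 and −0.59, a difference of 4.76 (SE 0.0634, adjusted p = 1.26e-25). For ERBB2 they were −2.68 and −0.30, a difference of −2.37 (SE 0.0689, adjusted p = 3.67e-19). ERBB3 differed by 0.24 (SE 0.0469, adjusted p = 0.000144), below the fold threshold. Of the 9 members tested in this fit, 6 were called, 4 with a higher and 2 with a lower value in MM134, where 21.0% of all genes were called, 10.9% higher and 10.1% lower. The count was again 6 without SUM44F replicate 1, where 20.8% of genes were called. With DESeq2 it was 5, BTC not being called (log2 0.98). For EGFR the difference was 3.80 with all libraries and −1.20 without SUM44F replicate 1, and neither was called.

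**Figure D4:**
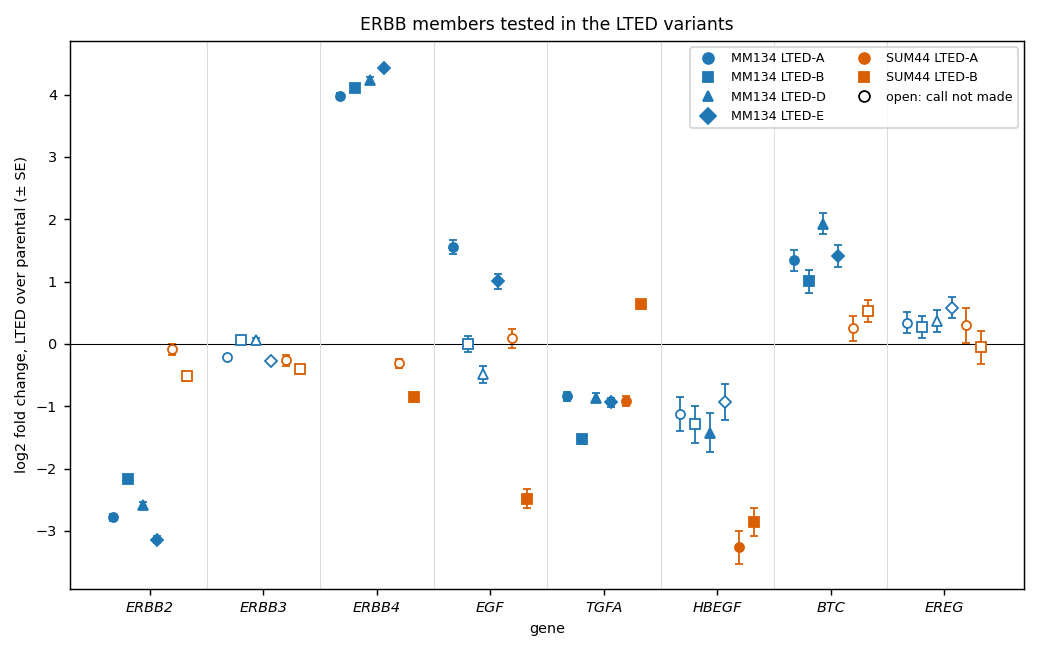
Log2 fold change (± SE) of the 8 members tested in both lines, with blue symbols for the 4 MM134 LTED variants against MM134 parental cells and orange symbols for the 2 SUM44 LTED variants against SUM44F. Filled symbols were called. ERBB4 and ERBB2 separate the lines (blue at 3.98 to 4.42 and −3.14 to −2.17, orange at −0.86 to −0.09), TGFA takes both signs in SUM44, and HBEGF is below 0 in all 6 variants.

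Among the EGFR ligands, TGFA fell and BTC rose in all 4 MM134 variants, EGF rose in 2, and HBEGF was lower in each but called in 1. TGFA (ENSG00000163235, chr2:70447284-70554193, minus strand), which is made as a membrane-bound precursor, was at 16.96, 16.6 and 18.0 CPM in MM134 parental cells. It was at 9.28, 9.21 and 10.4 CPM in LTED-A and at 5.99, 5.34 and 6.44 CPM in LTED-B. It was at 9.17, 9.40 and 9.50 CPM in LTED-D and at 9.71, 8.26 and 8.73 CPM in LTED-E. No LTED library reached the parental range. Its log2 fold changes were −0.84 (SE 0.0702), −1.53 (SE 0.0759), −0.86 (SE 0.0734) and −0.94 (SE 0.0723) in variants A, B, D and E, with adjusted p-values of at most 9.91e-09. The fall was larger in LTED-B than in its neighbour in the order of levels, LTED-E (0.59 on the log2 scale, adjusted p = 3.98e-06).

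In SUM44, TGFA went opposite ways in the 2 variants. SUM44F held 24.5, 24.5 and 23.7 CPM, LTED-A 11.9 and 13.6 CPM, and LTED-B 38.4, 38.0 and 36.6 CPM, the highest level of any group. The 3 groups did not overlap. It fell by 0.92 (SE 0.0844, adjusted p = 1.22e-05) in LTED-A and rose by 0.64 (SE 0.0729, adjusted p = 4.76e-05) in LTED-B on the log2 scale, and both calls held without SUM44F replicate 1 (−0.91 and 0.64). SUM44PE, at 8.90, 10.6 and 10.7 CPM, was lower than SUM44F by a log2 difference of −1.28 (SE 0.0849, adjusted p = 3.29e-07). The line difference for TGFA was −0.91 (SE 0.0898, adjusted p = 5.81e-09), from a mean of −1.05 in MM134 and of −0.14 in SUM44, the latter an average of changes of opposite sign.

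**Figure D5:**
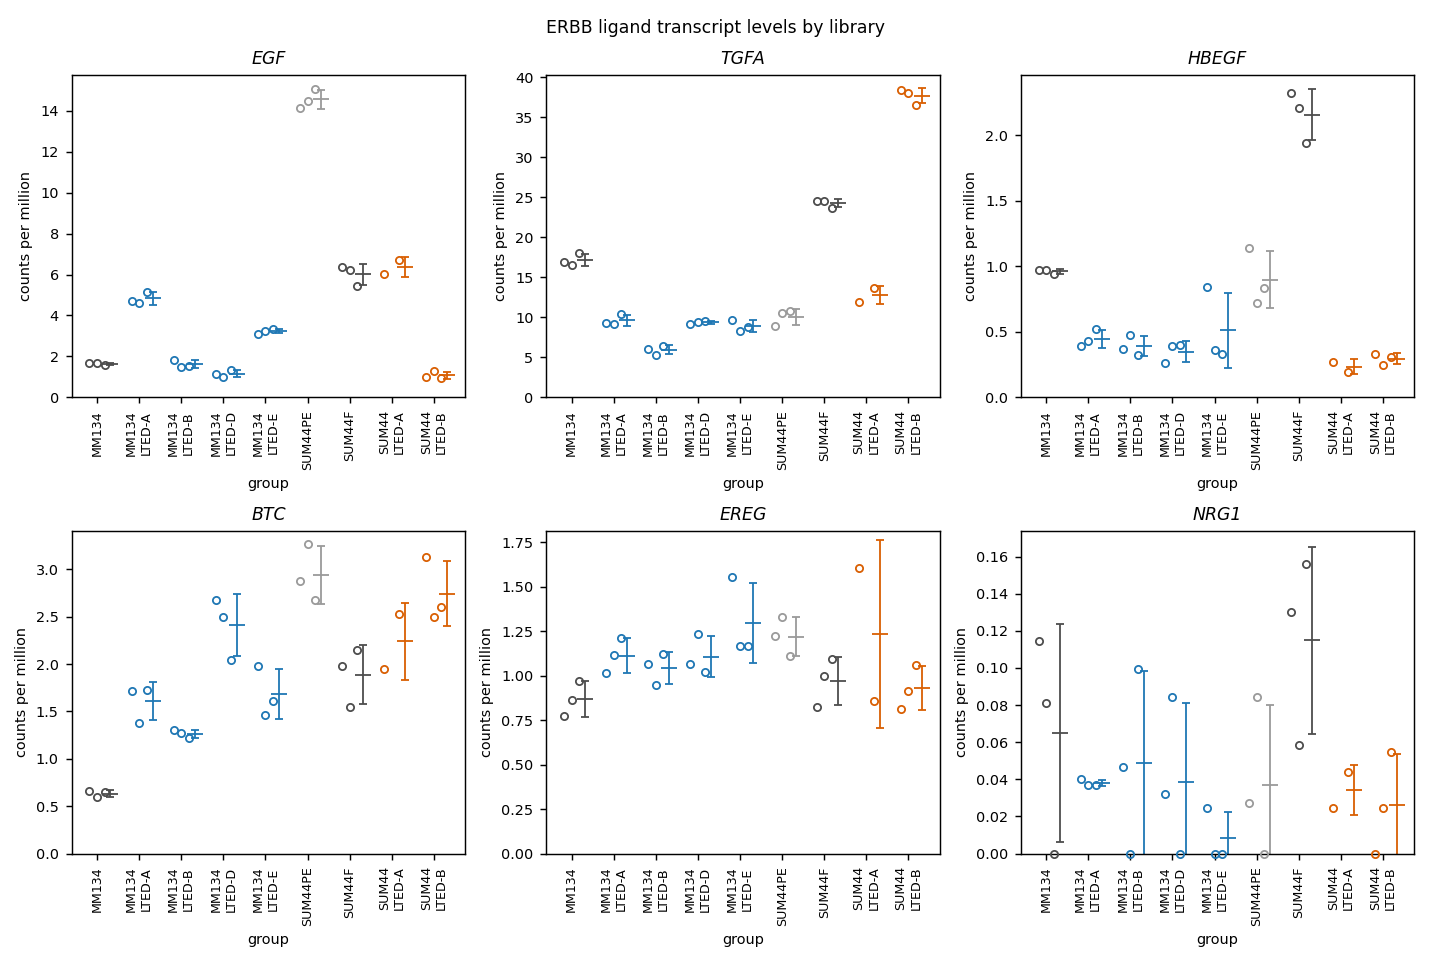
Transcript levels of the 6 ligands in CPM (linear axes from 0, each with its own range), with 1 circle per library and the group mean ± SD beside them. TGFA reaches 36.6 to 38.4 CPM in SUM44 LTED-B, EGF is highest in SUM44PE (14.1 to 15.1 CPM), EREG is near 1 CPM throughout, and no NRG1 value exceeds 0.156 CPM.

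BTC (ENSG00000174808, chr4:74744759-74794523, minus strand), betacellulin, which binds EGFR and ERBB4, was low but rose. MM134 parental cells held 0.658, 0.594 and 0.648 CPM (20 to 23 counts). LTED-A held 1.72, 1.37 and 1.73 CPM, LTED-B 1.30, 1.27 and 1.22 CPM, LTED-D 2.68, 2.498 and 2.04 CPM, and LTED-E 1.98, 1.46 and 1.61 CPM. Every LTED library was above every parental one. The log2 fold changes were 1.34 (SE 0.170), 1.00 (SE 0.182), 1.93 (SE 0.171) and 1.41 (SE 0.174), with adjusted p-values of 1.79e-06, 0.000140, 1.77e-08 and 1.36e-06. The call in LTED-B was lost without MM134 parental replicate 2 (log2 0.95, adjusted p = 0.00130).

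In SUM44, BTC was not called. It was at 1.98, 1.54 and 2.15 CPM in SUM44F, 1.95 and 2.52 CPM in LTED-A and 3.13, 2.497 and 2.60 CPM in LTED-B. LTED-A differed by 0.25 (SE 0.202, adjusted p = 0.379) and LTED-B by 0.53 (SE 0.183, adjusted p = 0.0378) on the log2 scale, although the LTED-B libraries lay above the SUM44F ones. The difference between the lines was 1.03 (SE 0.207, adjusted p = 0.000204), and it lost its call when any one of the 3 MM134 parental libraries (adjusted p = 0.00114, 0.00215 and 0.00108) or SUM44F replicate 3 (adjusted p = 0.00192) was left out, or with DESeq2. MM134 parental cells were 3.00-fold below SUM44F (log2 −1.58, SE 0.1799, adjusted p = 3.09e-08).

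EGF (ENSG00000138798, chr4:109912883-110013766, plus strand), the prototype EGFR ligand, split the MM134 variants. Parental cells held 1.66, 1.67 and 1.55 CPM (1.555 in replicate 3). LTED-A held 4.71, 4.61 and 5.17 CPM and LTED-E 3.11, 3.26 and 3.34 CPM, both above the parental range. LTED-B, at 1.83, 1.49 and 1.54 CPM, overlapped with parental cells, and LTED-D, at 1.13, 0.983 and 1.32 CPM, lay below them. EGF rose by a log2 fold change of 1.56 (SE 0.111, adjusted p = 6.69e-10) in LTED-A and 1.00 (SE 0.116, adjusted p = 6.17e-07) in LTED-E. In LTED-B the value was 0.00 (SE 0.126, adjusted p = 0.990) and in LTED-D −0.49 (SE 0.135, adjusted p = 0.00983). LTED-A and LTED-E themselves differed by 0.57 (adjusted p = 0.000191).

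In SUM44, EGF was at 6.36, 6.23 and 5.42 CPM in SUM44F and at 6.00 and 6.71 CPM in LTED-A, with overlapping ranges (log2 0.09, SE 0.154, adjusted p = 0.707). The LTED-B libraries held 0.994, 1.28 and 0.961 CPM, a fall with a log2 fold change of −2.48 (SE 0.155, adjusted p = 5.43e-07), or −2.44 without SUM44F replicate 1. SUM44PE held 14.1, 14.5 and 15.1 CPM, 2.41-fold above SUM44F (log2 1.27, SE 0.114, adjusted p = 4.604e-06). The line difference was 1.71 (SE 0.141, adjusted p = 2.16e-10), between a mean of 0.51 in MM134 and of −1.20 in SUM44. Both means average variants that did not move alike.

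HBEGF (ENSG00000113070, chr5:140332843-140346603, minus strand), the heparin-binding ligand of EGFR and ERBB4, was low in every group. MM134 parental cells held 0.972, 0.971 and 0.940 CPM (29 to 36 counts). The 12 MM134 LTED libraries held 0.258 to 0.840 CPM (8 to 39 counts), all below the parental ones. The log2 fold changes were −1.13 (adjusted p = 0.00200), −1.29 (adjusted p = 0.00147), −1.42 (adjusted p = 0.000846) and −0.94 (adjusted p = 0.0104) in variants A, B, D and E, with SEs of 0.277 to 0.314. The call in LTED-D was lost when any one of its 6 libraries was left out (adjusted p = 0.00228 to 0.00578), and with DESeq2 (log2 −1.43, adjusted p = 0.00103). In LTED-E, replicate 1 lay apart at 0.840 CPM from 0.360 and 0.330 CPM, and without it the log2 fold change was −1.46 and called (adjusted p = 8.79e-05).

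The fall in SUM44 was larger. SUM44F held 2.32, 2.21 and 1.94 CPM, LTED-A 0.272 and 0.193 CPM and LTED-B 0.331, 0.247 and 0.306 CPM, with no overlap. HBEGF fell in both, with log2 fold changes of −3.26 (SE 0.263, adjusted p = 4.64e-06) in LTED-A and −2.86 (SE 0.222, adjusted p = 2.78e-06) in LTED-B, or −3.21 and −2.80 without SUM44F replicate 1. The line difference of 1.86 (SE 0.315, adjusted p = 2.38e-05) lies between a mean of −1.20 in MM134 and of −3.06 in SUM44. SUM44PE, at 1.14, 0.718 and 0.832 CPM, was below SUM44F (log2 −1.28, SE 0.206, adjusted p = 0.000553), a call that was lost without SUM44PE replicate 2 or 3 (adjusted p = 0.00505 and 0.00482) or without SUM44F replicate 1, 2 or 3 (adjusted p = 0.00187, 0.00267 and 0.00140).

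EREG (ENSG00000124882, chr4:74365145-74388749, plus strand), epiregulin, stayed near 1 CPM, between 0.772 and 1.61 CPM in all 26 samples. It was called in none of the 6 variants. The log2 fold change was 0.34, 0.27, 0.36 and 0.58 in the MM134 variants, the last with an SE of 0.168 and an adjusted p of 0.00732, and 0.30 and −0.06 in SUM44 LTED-A and LTED-B. No pair of neighbours in the order of the 9 group means differed (adjusted p of 0.527 or above). NRG1 (ENSG00000157168), the neuregulin that binds ERBB3 and ERBB4, had 0 to 4 counts in the MM134 libraries and 0 to 14 in the SUM44 libraries, the 14 in SUM44F replicate 3. It was tested in no fit, and whether it changed was not detectable at this depth.

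The other ligands of the family were AREG, EPGN, NRG2, NRG3 and NRG4. AREG, amphiregulin, an EGFR ligand and a known estrogen target, was the most abundant ligand transcript per kilobase in MM134 parental cells (11.6 CPM per kilobase, against 3.49 for TGFA). It fell from 20.8, 18.0 and 18.5 CPM to 6.30 to 6.42 CPM in LTED-A and to 4.58 to 5.06 CPM in LTED-B. In LTED-D it was at 4.15 to 4.599 CPM and in LTED-E at 5.86 to 6.78 CPM, none of which overlapped with parental cells. The log2 fold changes were −1.59, −1.97, −2.11 and −1.61 with SEs of 0.0699 to 0.0765 and adjusted p-values of at most 7.68e-13. In SUM44, AREG was at 1.09 CPM in SUM44F and 0.380 and 0.375 CPM in LTED-A and LTED-B, and fell by 1.57 (SE 0.251, adjusted p = 0.000481) in LTED-B. That call held without SUM44F replicate 1 (log2 −1.64, adjusted p = 0.000903) and with DESeq2, but was lost when any other of the 6 libraries was left out (adjusted p = 0.00101 to 0.00450). In LTED-A the log2 fold change was −1.48 (SE 0.276, adjusted p = 0.00171), which was not called, and the test of the difference between the lines did not pass (log2 −0.29, adjusted p = 0.194). AREG was 17.4-fold higher in MM134 parental cells than in SUM44F (log2 4.12, SE 0.117, adjusted p = 7.45e-20).

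EPGN, epigen, was called in MM134 LTED-A (log2 2.55, SE 0.562, adjusted p = 0.000770), where it reached 17 to 38 counts, against 0 to 4 in parental cells. LTED-B, LTED-D and LTED-E held 1 to 7 counts. EPGN thus passed the filter on low counts only through LTED-A, the group in which it was called, and the fold is a description. EPGN was not called by DESeq2 (log2 2.59, adjusted p = 0.00305), and the call held without parental replicate 3 (adjusted p = 0.000758) but not when another of the 6 libraries was left out (adjusted p = 0.00116 to 0.00490). NRG4, a ligand of ERBB4, was at 0.427 to 0.813 CPM over the groups and was called in no variant. NRG2 and NRG3, neuregulins better known from neural tissue, were tested in neither line's own fit. NRG3 had 6 to 16 counts in MM134 parental cells and 1 to 11 in the MM134 variants. It had 1 or 2 counts in SUM44F, 12 and 24 in the samples of SUM44 LTED-A and 1 to 9 in SUM44 LTED-B, and the difference between the lines was called in the fit of all groups (adjusted p = 1.25e-05), with no fold given against SUM44F at this depth. NRG2 had at most 5 counts in any MM134 library.

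The lists of related genes that follow were counted by the same rule, beside 7.75% to 10.5% of all genes called higher, or lower, in each MM134 variant and 6.39% to 8.69% in each SUM44 variant. Counts this small, in lists of 7 to 21 tested genes, are given as a description. Ligand-releasing enzymes and their regulators were listed as 8 genes, of which 7 were tested in MM134. Of these 1, 0, 1 and 2 were called higher and 1 in each variant lower. ADAM12, a metalloprotease that can release HBEGF, fell in all 4 variants, from 1.42 CPM to 0.161 to 0.414 CPM (log2 −2.01, −2.60, −1.76 and −3.13). ADAM9, another membrane metalloprotease, rose in LTED-A, LTED-D and LTED-E, from 497 CPM to 795, 759 and 923 CPM (497.5 in parental cells), and was at 678 CPM in LTED-B without a call. In SUM44, 1 of 8 was called in LTED-A, as lower, and 0 in LTED-B by edgeR. In LTED-B, 4 were higher and 2 lower at an unadjusted p under 0.05, and DESeq2 called 0. The counts were again 1 and 0 without SUM44F replicate 1. The list's median log2 fold changes were 0.07 to 0.19 in the 6 variants, beside −0.09 to 0.02 for all genes.

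Receptor-proximal adaptors and effectors were listed as 17 genes, all tested. In MM134, 2, 1, 1 and 2 were called higher and 3, 1, 2 and 3 lower, and in the SUM44 variants A and B 1 and 2 higher and 3 and 1 lower (1 and 3 higher and 3 and 1 lower without SUM44F replicate 1). SRC, a kinase that couples to ERBB receptors, rose in all 4 MM134 variants, from 31.9 CPM to 84.1, 77.1, 77.1 and 70.7 CPM (log2 1.16 to 1.39, adjusted p of at most 1.68e-15). NCK2, an SH2 and SH3 adaptor, fell in LTED-A, LTED-D and LTED-E (log2 −1.23, −0.99 and −0.77) and had a log2 fold change of −0.27 in LTED-B. The list medians of −0.08 to 0.13 lay near those of all genes.

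Negative regulators of the receptors and of their turnover were listed as 21 genes. In MM134, 2, 2, 3 and 2 were called higher and 1, 1, 0 and 1 lower. LRIG1, which promotes the breakdown of ERBB receptors, rose in LTED-B, LTED-D and LTED-E from 53.9 CPM to 104, 82.5 and 86.4 CPM, and its relative LRIG3 rose in LTED-A, LTED-D and LTED-E from 7.71 CPM to 13.8, 15 and 14.8 CPM. In SUM44, 1 and 3 (variants A and B) were called higher and 0 and 3 lower (1 and 4 higher and 0 and 3 lower without SUM44F replicate 1). PTPN1, a tyrosine phosphatase, was the one called in both, at 154 and 109 CPM against 62.2 CPM in SUM44F. LRIG1 fell in SUM44 LTED-B (log2 −0.63, SE 0.0761, adjusted p = 7.00e-05).

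Of the 11 genes of the RAS-MAPK core, 2, 2, 2 and 0 were called higher in the MM134 variants, with 1 called lower in LTED-E. In addition 3 and 4 were called higher in the SUM44 variants A and B, where none was lower at an unadjusted p under 0.05 and DESeq2 gave the same counts. Without SUM44F replicate 1, 2 and 4 were called higher. The list medians were 0.13 to 0.23 in MM134 and 0.37 and 0.53 in SUM44. MAPK3, the kinase ERK1, was called in 3 MM134 variants and both SUM44 variants (log2 0.84, 0.72 and 1.17 in LTED-A, LTED-B and LTED-D, and 0.85 and 0.80 in SUM44). KSR1, a scaffold of the cascade, rose in the same 3 MM134 variants (log2 0.83, 0.64 and 0.69). BRAF rose in both SUM44 variants, from 50.6 CPM to 76.2 and 76.0 CPM (76.15 and 76.05), and was called lower in MM134 LTED-E (log2 −0.72).

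Feedback regulators and immediate targets of MAPK signalling were listed as 18 genes, all tested. In MM134, 8, 5, 7 and 6 were called higher and 4, 7, 5 and 4 lower, and in the SUM44 variants 4 and 6 higher and 5 and 5 lower. ETV5, an ETS factor, rose in MM134 from 0.396 CPM to 17.5, 5.39, 27.8 and 14.2 CPM, and SPRY1, a feedback inhibitor of receptor tyrosine kinase signalling, from 1.17 CPM to 93.6, 37.9, 43.6 and 27.6 CPM. SPRY4, a relative of SPRY1, rose from 34.2 CPM to 166, 88.1, 124 and 190 CPM. MYC, a growth-promoting transcription factor, fell from 19.4 CPM to 2.97, 1.33, 1.501 and 0.279 CPM. The list's median log2 fold change lay between 0.02 and 0.18 in MM134, since members moved both ways.

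In the SUM44 variants 8 members of that list were called alike in both, 4 as higher and 4 as lower. The 4 with the largest changes were the ones that fell. EGR1, an immediate early factor, went from 1.76 CPM to 0.278 and 0.337 CPM, and FOS, another, from 2.85 CPM to 0.681 and 0.621 CPM. DUSP6, an ERK phosphatase, went from 57.1 CPM to 14.4 and 15.8 CPM, and PHLDA1, which is induced by growth factors, from 74.6 CPM to 7.72 and 23.4 CPM. The 4 that rose in both were CCND1, DUSP4, DUSP5 and SPRY1 (median log2 1.72, 1.64, 1.135 and 1.02). SPRY4 was called lower in LTED-A (log2 −0.97) and higher in LTED-B (log2 1.12), so it split these variants as TGFA did. Without SUM44F replicate 1 the counts in this list were 5 and 6 higher and 4 and 4 lower.

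The protein-coding genes whose log2(CPM + 1) over the 9 group means was most like that of each member called in at least 3 MM134 variants or both SUM44 variants were found among 14407 genes. For ERBB2 they were LIFR (r = 0.993), IGSF9 (r = 0.991) and APOBEC3F (r = 0.988), and for ERBB4 NUMB (r = 0.961), MARK1 (r = 0.959) and RAPGEF2 (r = 0.955). For TGFA they were PDHB, ATL2 and NSL1 (r = 0.942 to 0.929), for HBEGF PCDH9, IFI27 and THSD7A (r = 0.974 to 0.967) and for BTC SLX1B, ZNF710 and AXIN1 (r = 0.959 to 0.955). These correlations describe 9 points that share parental cultures and line differences.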

How the data were processed

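RNA-Seq of 27 libraries (9 groups of 3 wells) was analysed. The authors made libraries with a stranded total RNA kit and estimated gene counts with Salmon 0.6.0 (hg38, Ensembl release 82), and the deposited table holds these estimated counts, not normalized. Trimming and the strand setting are not given in the sources used here. Counts were rounded. GENCODE v44 gave symbols, positions and merged exon lengths by Ensembl ID (56434 of 60619 matched). edgeR 4.0.16 in R 4.3.3 (filterByExpr, TMM, quasi-likelihood test, two-sided, Benjamini-Hochberg over all genes) was fitted to the MM134 groups (15 samples), to SUM44F with the SUM44 variants (8 samples), with SUM44PE added (11 samples), and to all groups (26 samples) for comparisons across lines. Groups at or under 3 counts in every library were taken as below detection. Scripts were tested on simulated data. The members and gene lists were chosen with earlier results of these data known. Named genes of a list were those called alike in at least 3 of 4 MM134 variants or both SUM44 variants, at most 4 per list and line by median absolute change. The 4 MAPK feedback and target genes called higher in both SUM44 variants were named beside them. DESeq2 1.42.0, other scaling, filters, thresholds and fits, thinning, a replicate block and leaving out each library were tried as alternatives. Depth limits precision for HBEGF, BTC, EGFR and NRG1.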

Additional observations from a re-analysis of the deposited data

Results flagged for a closer look

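Of the 9 members tested, 6 were called as responding differently to long-term estrogen deprivation in MM134 and SUM44, where 21.0% of all genes were. The test was the interaction term of the fit of both lines (the mean over the MM134 variants less the mean over the SUM44 variants, log2 scale). The differences were 4.76 for ERBB4, −2.37 for ERBB2, 1.86 for HBEGF, 1.71 for EGF, 1.03 for BTC and −0.91 for TGFA. The call of BTC was lost with DESeq2 (0.98, leaving 5) and when any one of 4 parental libraries was left out. For ERBB4 the lines moved in opposite directions on average (4.18 and −0.59), and for HBEGF in the same direction by unequal amounts (−1.20 and −3.06). For TGFA and EGF the SUM44 mean averages variants that did not move alike. In SUM44 LTED-A and LTED-B, TGFA was −0.92 and 0.64 and EGF 0.09 and −2.48. TGFA in SUM44 LTED-A fell much as in MM134 LTED-A (−0.84), so the difference does not describe each SUM44 variant. Both arms of each difference rest on 1 parental group per line. The parental cells of the 2 lines also differed in 5 of these 6 members, where 38.1% of all genes were called, TGFA (1.41-fold) not being called.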

How the results depend on the processing

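Of the values recomputed under the alternatives, 171 counts and shares and 1159 log2 fold changes kept their direction and side of the threshold, 9 fold changes gained a call, 21 lost one and 12 changed sign. Losses were in HBEGF and BTC. With DESeq2, 4 members instead of 5 were called in MM134 LTED-D and 5 instead of 6 for the line difference. With a minimum fold change of 2, 1 member instead of 2 was called in SUM44 LTED-A and 2 instead of 4 in SUM44 LTED-B. With the longest transcript as length, the ERBB3 share was 81.9% in MM134 parental cells and 64.4% in SUM44F. Changes of sign were in EGF, EREG and EGFR. EGF in MM134 LTED-B was 0.10 with thinned counts and −0.11 to 0.06 (positive without MM134 parental replicate 1, 0.01, or 2, 0.02, and without LTED-B replicate 2, 0.057, or 3, 0.03) with 1 library left out. EREG was −0.14 to 0.71 in SUM44 LTED-A and −0.18 to 0.05 (0.02 and 0.048 where positive) in SUM44 LTED-B with 1 library left out. EGFR was −1.36 to 4.26 between SUM44PE and SUM44F, −4.66 to 1.12 between MM134 and SUM44F and −1.20 to 4.54 for the line difference, each turned by SUM44F replicate 1. The comparison of parental cells was called for EGFR without the filter on low counts (−3.86) or without SUM44F replicate 3 (−4.53). With a replicate block EGFR between SUM44PE and SUM44F was 0.33, and HBEGF in MM134 LTED-D lost its call (−1.41). No other call of a member changed with the block. Over all genes, the calls in SUM44 LTED-A went from 3669 to 2860 with it. In that fit the mean of SUM44 LTED-A replicates 2 and 3 was put in block 2, so that variant had no sample in block 3. The block therefore cannot speak to a pairing of its replicate 3. Deviations of same-numbered wells had correlations of −0.0745 to 0.0574 in MM134 and −0.107 to 0.159 in SUM44. The highest in SUM44 were among the replicate 3 libraries (SUM44F with LTED-A 0.140, SUM44F with LTED-B 0.159, LTED-A with LTED-B 0.123). These values do not decide whether the numbers pair samples in SUM44. The cause of the other changes of sign or call was not tested. A filter of 10 counts in every sample left no value for the members it removed, and the interaction had no fit of 2 groups. Depth limits EGFR and NRG1 in most libraries and HBEGF in the SUM44 variants, where counts were few.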
